A study of Homo sapiens with 12 samples.

Results

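Keratin expression was followed through 10 genes, KRT7, KRT8, KRT10, KRT15, KRT17, KRT18, KRT19, KRT80, KRT81 and KRT86. They were taken by name from a table of 58830 gene entries, of which 20456 were high enough to test, and all 10 were among these. They are not all the keratins listed: 56 more entries bear the name KRT with a number, and 14 of them were tested. The cells were A549, an established epithelial line from a human lung adenocarcinoma, and Sm22mut, an A549 derivative whose genotype is labelled miR22/SNAI1 target site KO. Gene expression was measured by RNA-seq at day 5 in 4 groups: Sm22mut with TGFβ at 10 ng/mL, Sm22mut untreated, WT with TGFβ at the same dose, and WT untreated. The design text calls TGFβ an agent that induces EMT (epithelial-mesenchymal transition) and names the edited link between miR-22 and SNAI1. Each group has 3 libraries labelled biological repeats, so p-values describe the spread between repeats. Sm22mut is 1 derivative whose clonal status the labels do not state, and its edit and its derivation cannot be told apart.

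Keratins are the intermediate filament proteins of epithelial cells. A filament is built from pairs of 1 type I and 1 type II chain, so each type I keratin needs a type II partner. KRT8 and KRT18 are the first pair made in simple epithelia, KRT7 and KRT19 are added in glandular and ductal epithelia, and KRT10, KRT15 and KRT17 are best known from the layers of the skin and its appendages. KRT81 and KRT86 are hair keratins. A fall in epithelial keratins together with a gain of vimentin is a classic sign of EMT. Here KRT10, KRT15, KRT17, KRT18 and KRT19 are the type I members, and KRT7, KRT8, KRT80, KRT81 and KRT86 the type II members.

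Recovered reads numbered 84210775 to 111141708 per library. Of 13 epithelial and lung markers, EPCAM and CDH1 were well above 0 in all 12 libraries, while the surfactant genes SFTPB and SFTPC did not exceed 12.4 and 6.54 normalized counts. GRHL2 did not exceed 16.1 and NKX2-1 26.9. The summed markers ran from 17292 to 18531 normalized counts in Sm22mut with TGFβ, 45696 to 50000.3 in Sm22mut untreated, 15273 to 15919 in WT with TGFβ and 41808 to 45252 in WT untreated. CDH1 and ELF3 made up most of this sum. Of 10 tested markers, 3 were called higher and 5 lower with TGFβ in Sm22mut, and 3 higher and 6 lower in WT. Over all tested genes 32.1% were higher and 30.7% lower in Sm22mut, and 30.8% and 30.9% in WT. CDH3 was among the higher in both lines. Mean CLDN4 rose from 219 to 1536 in Sm22mut and from 124 to 1053 in WT. The sum of 6 fibroblast markers was 1992 to 2363 in Sm22mut with TGFβ, 210.2 to 286.8 in Sm22mut untreated, 1391 to 1756 in WT with TGFβ and 154.9 to 198.4 in WT untreated. All 5 tested fibroblast markers were called higher with TGFβ in each line (32.1% of all tested genes in Sm22mut, 30.8% in WT). DCN, the marker too low to test, was at 18.2 or less in every library. The sum of 6 endothelial markers was 48.0 to 64.8 in Sm22mut with TGFβ, 146.9 to 197.1 in Sm22mut untreated, 41.2 to 75.6 in WT with TGFβ and 113.6 to 152.5 in WT untreated, with KDR at 6.45 or less. Most of the untreated sum was PECAM1, at 110.5 to 160.9 in Sm22mut and 92.7 to 113.7 in WT, against 9.10 or less with TGFβ. TEK went the other way, from 2.06 or less untreated to 10.5 to 44.1 with TGFβ. Of 3 tested endothelial markers, 1 was called higher and 2 lower with TGFβ in Sm22mut, and 1 higher and 1 lower in WT. The sum of 6 leukocyte markers was 293.5 to 338.1 in Sm22mut with TGFβ, 316.4 to 353.1 in Sm22mut untreated, 262.7 to 303.4 in WT with TGFβ and 341.9 to 430.1 in WT untreated, most of it ITGAM (162.7 to 335.3), with PTPRC at 15.0 or less and CD3E at 1.65 or less. The part of these marker differences in the keratin results was not tested, and in bulk RNA fewer keratin-rich cells and less keratin RNA per cell cannot be told apart. SNAI1 itself had 1406, 1214 and 1318 normalized counts in Sm22mut with TGFβ, 512.8, 498.8 and 431.6 in Sm22mut untreated, 958.5, 897.5 and 768.2 in WT with TGFβ, and 510.4, 400.4 and 575.8 in WT untreated. Counts per gene do not show the edit.

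TGFβ split the keratins in the same way in both lines. KRT7, KRT17 and KRT80 rose, and KRT8, KRT10, KRT15, KRT18, KRT19, KRT81 and KRT86 fell. In Sm22mut this was 3 of 10 higher and 7 of 10 lower by limma (adjusted p under 0.05), where 62.8% of all tested genes were called, 32.1% higher and 30.7% lower. In WT it was again 3 higher and 7 lower, where 61.7% of tested genes were called, 30.8% higher and 30.9% lower. All 3 rises and all 7 falls were called in both lines. The share of all tested genes called alike in both lines is not given here, so this agreement has no background beside it. The median log2 fold change of the 10 was -0.60 in Sm22mut and -0.38 in WT, against 0.03 in Sm22mut and 0.02 in WT over all tested genes. TGFβ-treated and untreated libraries did not overlap for 9 of 10 keratins in each line (KRT19 overlapped in Sm22mut, KRT86 in WT), as for 69.2% of tested genes in Sm22mut and 64.2% in WT.

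In untreated cells KRT7, KRT10, KRT15, KRT80, KRT81 and KRT86 were higher in Sm22mut than in WT, and none of the 10 was called lower. That is 6 of 10 higher, where 31.8% of tested genes were called, 14.3% higher and 17.5% lower. At an unadjusted p under 0.05, and by edgeR or DESeq2, the number lower was also 0. Untreated Sm22mut and WT libraries did not overlap for 7 of the 10, against 48.8% of tested genes. The median of the 10 was 0.47, and 0.00 over all tested genes.

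With TGFβ present, limma called 0 of 10 keratins between Sm22mut and WT, where 11.7% of tested genes were called, 7.38% higher and 4.32% lower. At an unadjusted p under 0.05 only KRT80 passed (1 of 10), edgeR called 0, and DESeq2 called KRT80 alone (adjusted p = 0.0435). The libraries did not overlap for 1 of the 10, KRT80, against 26.6% of tested genes, and the median was -0.01. The test of whether the TGFβ response itself differed between the lines (the interaction) called 5 of 10, all with a negative value for Sm22mut minus WT. For KRT7 and KRT80 this was a smaller rise in Sm22mut, and for KRT10, KRT15 and KRT81 a deeper fall. Over all tested genes the interaction called 16.6%, 10.6% higher and 6.02% lower, and the medians were -0.41 for the keratins and 0.02 for all. No keratin was called higher there by limma, edgeR, DESeq2 or at an unadjusted p under 0.05 (0 of 10). These comparisons share their groups, so the untreated difference and the interaction are not independent.

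**Figure D1:**
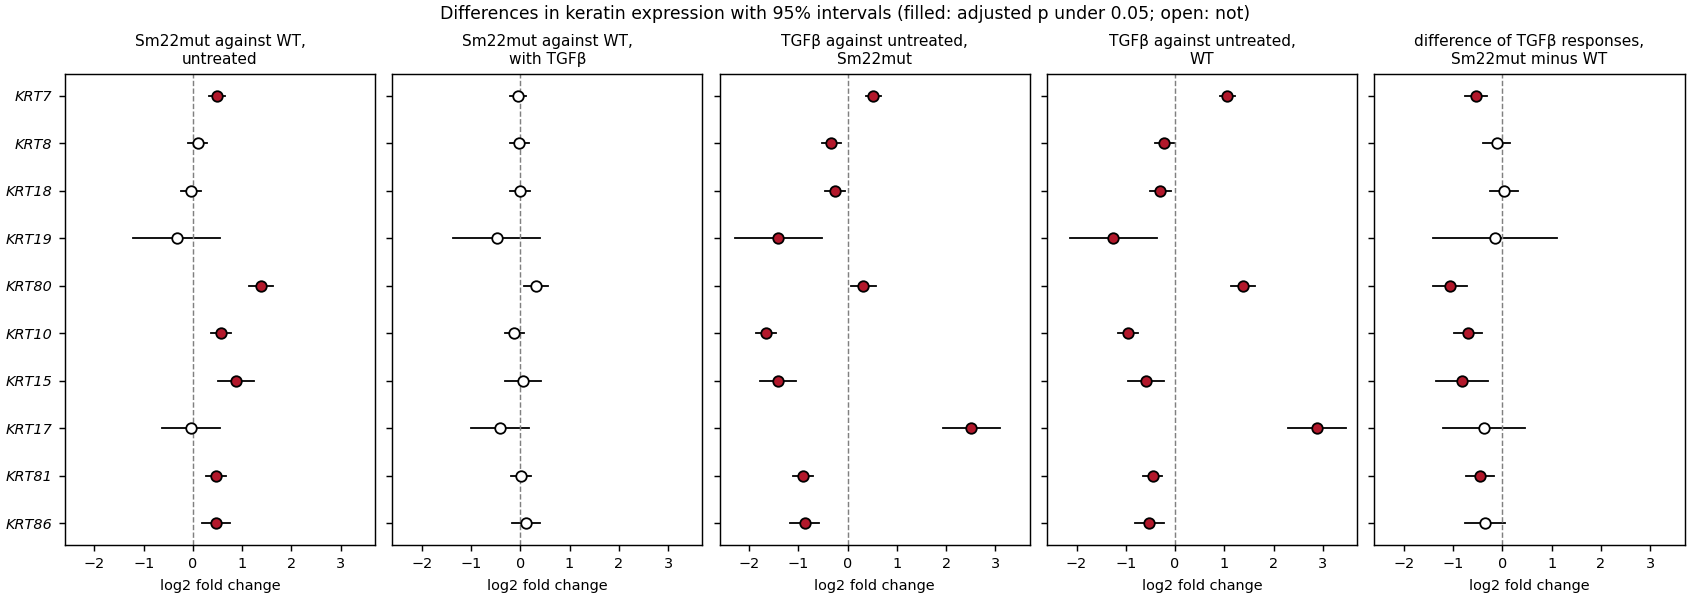
Log2 fold changes of the 10 keratins on the log2(normalized count + 1) scale (x axis) with 95% intervals, 1 panel per comparison; filled points have an adjusted p under 0.05 in limma and open points do not. The untreated panel holds 6 filled points right of 0, the panel with TGFβ holds none, and the interaction panel holds 5, all left of 0.

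KRT8, the type II partner of KRT18, was the most highly expressed of the 10 and ranked 6 among all genes of each untreated Sm22mut library and 8 or 9 in untreated WT. In Sm22mut it had 293673, 253029 and 279269 normalized counts with TGFβ, against 348267, 351081 and 339384 untreated. WT cells had 316025, 274687 and 248927 with TGFβ and 330222, 317175 and 323732 untreated. All treated libraries lay below the untreated ones of the same line, though replicate 1 of treated WT came close to them. The log2 fold change with TGFβ was -0.33 ± 0.09 (SE, n = 3 libraries each) in Sm22mut (adjusted p = 0.00395) and -0.22 ± 0.09 in WT (adjusted p = 0.0457). The WT call rests on a narrow margin: it was lost with a pseudocount of 10, without the filter, with TMM factors, with the compared groups alone, and in 10 of 12 fits that left out a library (all but replicate 1 of WT with TGFβ and replicate 2 of Sm22mut with TGFβ), where the adjusted p reached 0.162 without replicate 3 of WT with TGFβ (-0.14). The untreated lines did not overlap, but their difference of 0.10 (95% interval -0.09 to 0.29, adjusted p = 0.447) did not pass except with quantile normalization (0.25, adjusted p = 0.00415).

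The RefSeq promoter table (GRCh38.p14) holds KRT8 and KRT10 among the 10. The 250 bases before the KRT8 start that the table uses, which lies inside the annotated span of the gene (chr12:52897191-52949860), at chr12:52926470-52926719 on the minus strand, are shown because KRT8 is the most abundant member, with the capitals marking the match found, the letters CAGACA of a short SMAD element at -137 from the start.
KRT8 promoter: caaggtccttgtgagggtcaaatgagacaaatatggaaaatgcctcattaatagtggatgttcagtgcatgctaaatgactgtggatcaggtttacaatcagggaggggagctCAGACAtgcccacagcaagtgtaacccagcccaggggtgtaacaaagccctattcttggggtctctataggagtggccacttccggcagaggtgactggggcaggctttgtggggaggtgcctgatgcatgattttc
Both strands were searched for the E-box CAGGTG (the letters known for SNAI1), the AP-1 letters TGANTCA, the SMAD letters GTCTAGAC and CAGACA, and TATAAA; no match overlapped another. CAGACA occurs in 13.6% of 35116 such promoters, CAGGTG in 17.5%, TGANTCA in 6.57%, GTCTAGAC in 0.182% and TATAAA in 10.7%. A match is a string of letters and not a measured binding site.

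KRT18, the type I partner of KRT8, fell about as much in both lines and did not differ between them. It had 163483, 142050 and 157805 normalized counts in Sm22mut with TGFβ, against 185225, 189069 and 181413 in Sm22mut untreated. WT cells held 181837, 153572 and 131754 with TGFβ and 197574, 184877 and 186130 untreated. Treated and untreated libraries were apart in each line, with treated WT widely spread. The fold changes were -0.26 ± 0.10 in Sm22mut (adjusted p = 0.0256) and -0.30 ± 0.10 in WT (adjusted p = 0.0146). Neither call held in every fit that left out a library: it was lost in Sm22mut without untreated replicate 1 or 2 or treated replicate 2 (adjusted p up to 0.108), and in WT without untreated replicate 1 or treated replicate 3 (-0.18, adjusted p = 0.0624) and with the compared groups alone (adjusted p = 0.0516). Untreated Sm22mut and WT differed by -0.03 (95% interval -0.24 to 0.17), and the treated lines by 0.00 (-0.21 to 0.20).

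The ratio of KRT8 to KRT18 counts was 1.77 to 1.80 in Sm22mut with TGFβ, 1.86 to 1.88 in Sm22mut untreated, 1.74 to 1.89 in WT with TGFβ and 1.67 to 1.74 in WT untreated. The untreated lines did not overlap in it. KRT8 and KRT18 lie next to each other on opposite strands of chromosome 12, share 525 exon bases (7.63% of those of KRT8), and have many processed pseudogenes. Of the 50-base windows of their transcripts, 37.1% for KRT8 and 47.6% for KRT18 occur in other genes. The 117 KRT8P and KRT18P entries were low beside their parents: KRT8P entries summed to 1391 ± 78.8 (SD, n = 3) in Sm22mut with TGFβ, 1908 ± 96.5 in Sm22mut untreated, 1406 ± 84.6 in WT with TGFβ and 1626 ± 20.3 in WT untreated. The sources used here do not say how reads with several matches were counted. With the pseudogene entries added to KRT8 or KRT18, every one of the 5 comparisons kept its side of the threshold. Because these entries are so low beside their parents, the addition could move the fold changes only a little. It does not show how reads with several matches, or those of the shared exon bases, were assigned.

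KRT7, a type II keratin of glandular and ductal epithelia and a common diagnostic marker of lung adenocarcinoma, ran against KRT8. It had 106857, 95819 and 102348 normalized counts in Sm22mut with TGFβ, against 69029, 74409.9 and 68677 in Sm22mut untreated. In WT it had 116148, 103869 and 95343 with TGFβ and 48633, 51735 and 50287 untreated. The 3 levels did not touch: both treated groups lay highest and overlapped, untreated Sm22mut came next, and untreated WT lowest. TGFβ raised KRT7 by 0.52 ± 0.07 in Sm22mut (1.44-fold, adjusted p = 1.22e-05) and by 1.06 ± 0.07 in WT (2.09-fold, adjusted p = 3.15e-09). The responses differed by -0.54 ± 0.11 (adjusted p = 0.00245). Untreated Sm22mut exceeded untreated WT by 0.49 ± 0.07 (1.41-fold, adjusted p = 0.000113), and with TGFβ the difference was -0.04 (95% interval -0.20 to 0.11, adjusted p = 0.769).

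KRT19, a small type I keratin that lacks most of the tail domain, was scarce in these cells. It had 112.8, 32.3 and 22.8 normalized counts in Sm22mut with TGFβ, against 112.5, 141.6 and 103.0 in Sm22mut untreated. WT had 82.4, 52.7 and 53.0 with TGFβ and 183.4, 131.8 and 134.3 untreated. Replicate 1 of treated Sm22mut stood at the level of untreated cells, far above the other 2 treated replicates. The fall was -1.41 ± 0.42 in Sm22mut (adjusted p = 0.00758) and -1.26 ± 0.42 in WT (adjusted p = 0.0154), and both are weakly held: the first was lost without treated replicate 3 (-0.95, adjusted p = 0.0531), the second without untreated replicate 1 (-1.11, adjusted p = 0.0595) or treated replicate 2 (adjusted p = 0.0533). Treated Sm22mut and WT differed by -0.48 ± 0.42 (adjusted p = 0.526), but by -1.15 (adjusted p = 0.0194) once replicate 1 of treated Sm22mut was left out.

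**Figure D2:**
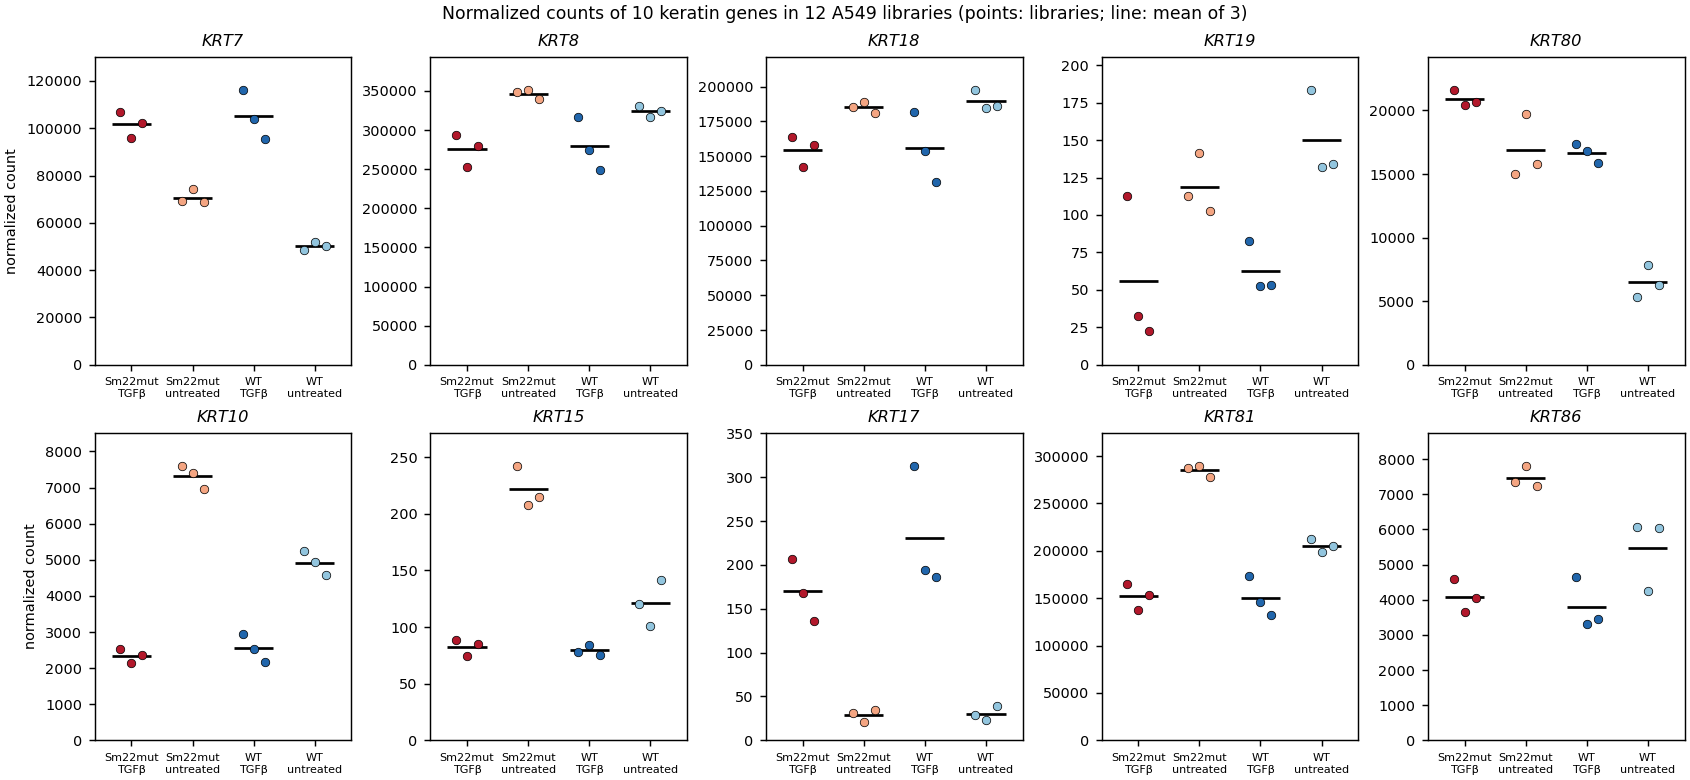
Normalized count (y axis, linear from 0) of each of the 10 keratins in the 12 libraries, grouped on the x axis by line and treatment; points are libraries and short lines the mean of 3. KRT7, KRT17 and KRT80 sit higher with TGFβ and the other 7 lower, and untreated Sm22mut lies above untreated WT for KRT7, KRT10, KRT15, KRT80, KRT81 and KRT86.

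KRT80, a type II keratin found in many epithelia, showed the largest difference between the untreated lines among the 10. Its counts were 21606, 20440.4 and 20658 in Sm22mut with TGFβ, against 15023, 19757 and 15779 in Sm22mut untreated. WT cells had 17354, 16816 and 15907 with TGFβ, against 5341, 7885 and 6268 untreated. Untreated Sm22mut libraries thus stood at the level that WT reached with TGFβ, and untreated WT was apart from all others. Untreated Sm22mut exceeded untreated WT by 1.38 ± 0.12 (2.61-fold, adjusted p = 3.15e-07). TGFβ raised KRT80 by 0.32 ± 0.12 in Sm22mut (1.25-fold, adjusted p = 0.0234) and by 1.38 ± 0.12 in WT (2.60-fold, adjusted p = 2.7e-08), and the responses differed by -1.06 ± 0.16 (adjusted p = 0.000424). The rise in Sm22mut did not pass with equal totals, with quantile normalization, or without untreated replicate 1 or 3 or treated replicate 1 (adjusted p of 0.0621 to 0.114).

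With TGFβ, every Sm22mut library was above every WT library for KRT80, yet the difference of 0.32 ± 0.12 (95% interval 0.08 to 0.57) had an adjusted p of 0.0815. It passed when only the treated groups were fitted (adjusted p = 0.0216), with DESeq2, and when untreated WT replicate 1 or 2 was left out (0.0448 and 0.0319).

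KRT80 lies at chr12:52168996-52192014 on the minus strand and has the longest 3′ untranslated region of the 10 (2402 bases in its GENCODE 29 transcript). Since the edited link is one of miR-22, the mature microRNA is shown from RefSeq (GRCh38.p14, chr17:1713914-1713935, minus strand), with its seed, bases 2 to 8, in capitals. Beside it stands the 30-base stretch around the only match to that seed in the 3′ untranslated regions of the 10 keratins, with the letters complementary to the seed in capitals. The match starts at base 779 of the KRT80 region.
miR-22-3p: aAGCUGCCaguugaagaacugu
KRT80 site: tggaagccagatGGCAGCTtgagattgggc
Among 4190 genes with a 3′ untranslated region at least this long, 753 (18%) hold the same letters in their last 2402 bases. Over whole transcripts the same letters occurred 5 times in KRT10, 3 times each in KRT8 and KRT80, and 2 times in KRT15. They occurred 1 time each in KRT7 and KRT86 and not in the other members. The genotype label names the SNAI1 target site as edited, and not KRT80. The match therefore does not link the edit to the difference in KRT80 between the lines. Whether miR-22 acts on KRT80 was not tested.

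KRT17, a type I keratin induced in injured and stressed epithelia, was nearly silent in untreated cells and rose with TGFβ. It had 206.7, 168.0 and 136.5 normalized counts in Sm22mut with TGFβ, against 31.0, 21.5 and 35.1 in Sm22mut untreated. WT had 313.3, 194.6 and 185.7 with TGFβ, against 28.9, 23.1 and 38.7 untreated. Treated and untreated libraries were far apart in both lines, and the lines overlapped under each condition. The rise was 2.51 ± 0.28 in Sm22mut (5.71-fold, adjusted p = 6.64e-07) and 2.88 ± 0.28 in WT (7.38-fold, adjusted p = 1.41e-07), the largest fold change among the 10 in each line. The lines differed by -0.05 untreated (95% interval -0.63 to 0.54) and by -0.42 with TGFβ (-1.0 to 0.17), and the responses by -0.37 ± 0.39 (adjusted p = 0.579).

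KRT10, the type I keratin of differentiating epidermal layers, behaved in the opposite way. It had 2516, 2129.9 and 2353 normalized counts in Sm22mut with TGFβ, against 7607, 7399.9 and 6949 in Sm22mut untreated. Counts in WT were 2933, 2541 and 2167 with TGFβ, against 5255, 4933 and 4580.5 untreated. Untreated Sm22mut was highest, untreated WT next, and the treated groups overlapped at the bottom. The fold change with TGFβ was -1.65 ± 0.10 in Sm22mut (3.14-fold lower, adjusted p = 2.33e-10) and -0.96 ± 0.10 in WT (1.94-fold lower, adjusted p = 2.14e-07). Untreated Sm22mut exceeded untreated WT by 0.57 ± 0.10 (1.49-fold, adjusted p = 0.000259), and the responses differed by -0.69 ± 0.13 (adjusted p = 0.00234). With TGFβ the lines differed by -0.12 (95% interval -0.32 to 0.08).

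The 250 bases before the KRT10 start, at chr17:40822615-40822864 on the minus strand, are shown because KRT10 has the strongest fall of the well-expressed members. Of the letters searched, TATAAA at -29 (capitals) was found.
KRT10 promoter: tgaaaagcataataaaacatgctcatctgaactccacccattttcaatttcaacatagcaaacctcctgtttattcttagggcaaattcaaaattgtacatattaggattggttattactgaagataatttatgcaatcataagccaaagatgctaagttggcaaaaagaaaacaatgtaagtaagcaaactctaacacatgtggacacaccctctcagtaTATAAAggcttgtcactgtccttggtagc

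KRT15, a type I keratin of basal and hair follicle stem cells, was low and followed KRT10. It had 88.7, 74.3 and 85.3 normalized counts in Sm22mut with TGFβ, against 242.4, 208.1 and 215.0 in Sm22mut untreated. Values in WT were 78.0, 84.4 and 75.6 with TGFβ, against 120.6, 101.3 and 141.8 untreated. Untreated Sm22mut stood apart as the highest group, and the treated groups overlapped. The fold change with TGFβ was -1.41 ± 0.17 in Sm22mut (adjusted p = 2.64e-06) and -0.59 ± 0.17 in WT (adjusted p = 0.00769). Untreated Sm22mut exceeded untreated WT by 0.88 ± 0.17 (1.84-fold, adjusted p = 0.00119). The responses differed by -0.82 ± 0.25 (adjusted p = 0.0331), a call that was lost without the filter and in 8 fits that left out 1 library (replicate 1 or 2 of untreated WT, replicate 2 of treated WT, any replicate of untreated Sm22mut, replicate 2 or 3 of treated Sm22mut; adjusted p of 0.0507 to 0.0845).

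KRT81, a type II hair keratin that is also described in carcinoma cells, was among the most abundant transcripts of these cells. It ranked 10 to 12 among all genes of untreated Sm22mut libraries, 22 to 26 in untreated WT, 40 to 49 in Sm22mut with TGFβ and 39 to 51 in WT with TGFβ. It had 164765, 137279 and 153912 normalized counts in Sm22mut with TGFβ, against 287059, 289908 and 277441 in Sm22mut untreated. WT cells counted 173191, 146169 and 131955 with TGFβ, against 212119, 198670 and 204871 untreated. The order was that of KRT10, with untreated Sm22mut above untreated WT and the treated groups together at the bottom. The fold change with TGFβ was -0.91 ± 0.09 in Sm22mut (adjusted p = 3.07e-07) and -0.46 ± 0.09 in WT (adjusted p = 0.000486), and untreated Sm22mut exceeded untreated WT by 0.47 ± 0.09 (1.39-fold, adjusted p = 0.00112). The responses differed by -0.45 ± 0.13 (adjusted p = 0.0279), which did not pass in 7 fits without 1 library (replicate 2 or 3 of untreated WT, replicate 2 of treated WT, replicate 1 or 2 of untreated Sm22mut, replicate 2 or 3 of treated Sm22mut; adjusted p of 0.0536 to 0.0662).

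KRT86, a type II hair keratin whose annotated span encloses KRT81 on the opposite strand, moved with KRT81 at a far lower level. Its counts were 4579, 3642 and 4049.9 in Sm22mut with TGFβ, against 7355, 7814 and 7238 in Sm22mut untreated. For WT they were 4651, 3319 and 3438 with TGFβ, against 6074, 4259 and 6053 untreated. Replicate 2 of untreated WT lay below replicate 1 of treated WT. The fold change with TGFβ was -0.87 ± 0.14 in Sm22mut (adjusted p = 3.24e-05) and -0.52 ± 0.14 in WT (adjusted p = 0.00343), and the responses differed by -0.35 ± 0.19 (adjusted p = 0.239). Untreated Sm22mut exceeded untreated WT by 0.47 ± 0.14 (adjusted p = 0.015), which did not pass when replicate 2 of untreated Sm22mut (adjusted p = 0.0573) or replicate 2 of untreated WT (0.30, adjusted p = 0.0816) was dropped.

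The 2 hair keratins are hard to tell apart by sequence. Their coding sequences are 93.6% identical over 1454 aligned bases, with an identical run of 605 bases, and 38.4% of the 50-base windows of KRT81 also occur in KRT86. The stretch of coding bases 1237 to 1326 holds 19 differences, the most of any 90-base window, and is shown from the GENCODE 29 transcripts with the differing bases in capitals.
KRT81: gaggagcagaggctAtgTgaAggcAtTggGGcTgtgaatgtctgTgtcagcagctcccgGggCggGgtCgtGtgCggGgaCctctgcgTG
KRT86: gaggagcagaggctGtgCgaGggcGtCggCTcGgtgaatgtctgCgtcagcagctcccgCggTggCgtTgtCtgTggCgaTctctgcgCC
The genes share no exon bases, but reads from identical stretches could be split between them, and the sources used here state neither the handling of such reads nor the strand setting, so the level of KRT86 in particular is uncertain. The ratio of KRT81 to KRT86 counts was 36.0 to 38.0 in Sm22mut with TGFβ, 37.1 to 39.0 in Sm22mut untreated, 37.2 to 44.0 in WT with TGFβ and 33.8 to 46.7 in WT untreated. With KRT81, KRT83 and KRT86 summed, the untreated difference was 0.47, the change with TGFβ -0.91 in Sm22mut and -0.46 in WT, and the interaction -0.45, all past the threshold. KRT81 makes up nearly all of that sum, so the sum follows KRT81 and cannot show how reads were split. KRT87P was not part of the sum.

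Compared per kilobase of transcript, which allows levels of different genes to be set side by side, KRT8 was first in all 4 groups. In untreated WT its mean of 172003 ± 3466 normalized counts per kilobase (SD, n = 3) was followed by KRT18 (121336 ± 4480), KRT81 (106387 ± 3490), KRT7 (28631 ± 885), KRT86 and KRT10 with overlapping libraries, KRT80 (1684 ± 334), KRT19 (108 ± 20.9), and KRT15 and KRT17, whose libraries overlapped. In untreated Sm22mut KRT81 (147643 ± 3387) stood above KRT18 (118589 ± 2451) with no overlap. With TGFβ KRT18 was again second in both lines, with overlap between KRT18 and KRT81 in WT. KRT80 stood directly below KRT7 in the other 3 groups and below KRT86 and KRT10 in untreated WT, and KRT17 stood above KRT19 in both treated groups. The place of KRT15 is uncertain, since its transcript lengths differ widely in GENCODE 29.

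Together the 10 genes took 0.749 ± 0.039% of each library (SD, n = 3) in Sm22mut with TGFβ, 1.02 ± 0.028% in Sm22mut untreated, 0.770 ± 0.083% in WT with TGFβ and 0.859 ± 0.0063% in WT untreated. Untreated Sm22mut lay above the other groups in all 3 libraries, and without KRT8 the shares were 0.460% in Sm22mut with TGFβ, 0.637% in Sm22mut untreated, 0.470% in WT with TGFβ and 0.507% in WT untreated. Type II members summed to 553975 ± 40995 in Sm22mut with TGFβ, 726074 ± 17235 in Sm22mut untreated, 555932 ± 66594 in WT with TGFβ and 591107 ± 11334 in WT untreated. Type I members, nearly all KRT18, summed to 157088 ± 11345 in Sm22mut with TGFβ, 192924 ± 4070 in Sm22mut untreated, 158641 ± 25575 in WT with TGFβ and 194751 ± 7299 in WT untreated. The untreated lines overlapped in the type I sum and not in the type II sum. KRT7 made up 14.1 to 14.6% of the 10 in Sm22mut with TGFβ, 7.50 to 7.92% in Sm22mut untreated, 14.3 to 15.1% in WT with TGFβ and 6.04 to 6.72% in WT untreated. KRT81 made up 21.0 to 21.7% in Sm22mut with TGFβ, 30.8 to 31.2% in Sm22mut untreated, 20.8 to 21.3% in WT with TGFβ and 25.8 to 26.3% in WT untreated. No test was made of these sums, because the 10 genes were picked with results of these data known.

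**Figure D3:**
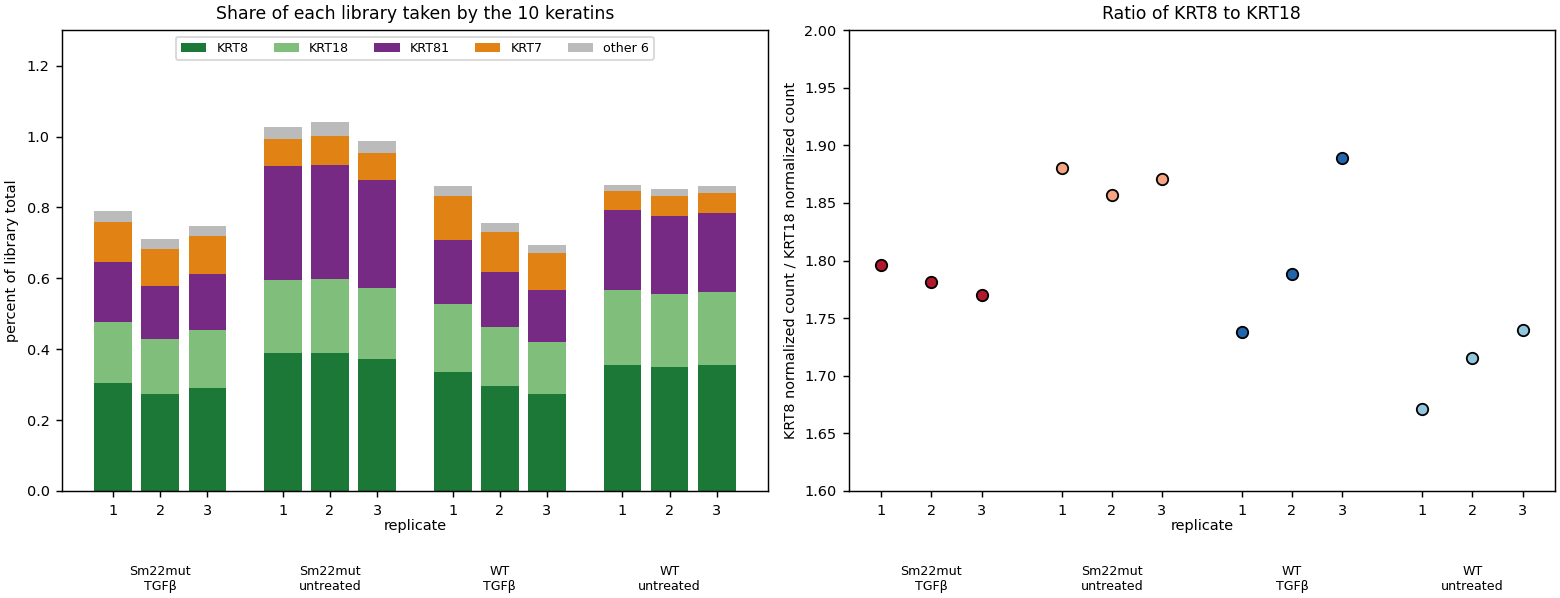
Left, percent of the library total (y axis, from 0) taken by KRT8, KRT18, KRT81, KRT7 and the other 6 keratins in each library; right, ratio of KRT8 to KRT18 normalized counts (y axis, not from 0) per library. Untreated Sm22mut bars are the tallest, between 0.988% and 1.04%, and their KRT81 segments the tallest.

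Replicate 1 had the highest value of its group for 10 of 10 keratins in Sm22mut with TGFβ and for 9 of 10 in WT with TGFβ. In untreated cells it was highest for 2 of 10 in Sm22mut and 6 of 10 in WT. The share over all tested genes is not given here, so a trait of the keratins cannot be told from one of the whole library. Mitochondrial genes took 2.20 to 2.64% of the library in Sm22mut with TGFβ, 2.23 to 2.51% in Sm22mut untreated, 2.73 to 3.79% in WT with TGFβ and 2.54 to 2.83% in WT untreated. Left out together, the 2 treated replicates 1 changed 2 keratin calls: the rise of KRT80 in Sm22mut (0.30, adjusted p = 0.0526) and the interaction of KRT15 (-0.88, adjusted p = 0.0509).

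Of 14 tested keratins outside the 10, 6 rose and 6 fell with TGFβ in Sm22mut, where 62.8% of all tested genes were called, and 5 rose and 5 fell in WT, where 61.7% were. Of these, 4 of the rises and 5 of the falls were called in both lines, again without a share over all tested genes. KRT4, a type II keratin of stratified mucosa such as the oesophagus, fell in both lines. It had 25.1, 26.9 and 10.2 normalized counts in Sm22mut with TGFβ, against 840.8, 783.0 and 885.2 in Sm22mut untreated. In WT it had 29.7, 24.0 and 36.1 with TGFβ, against 2029, 1655 and 1858 untreated. The log2 fold change of KRT4 was -5.38 in Sm22mut and -5.92 in WT (SE 0.27 each), and it was 2.20-fold lower in untreated Sm22mut than in untreated WT (-1.14 ± 0.27, adjusted p = 0.00393), the only keratin called lower there.

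KRT20, a type I keratin of intestinal and urothelial epithelium, went nearly or wholly undetected with TGFβ. Its counts were 6.26, 0 and 2.28 in Sm22mut with TGFβ, against 69.1, 47.2 and 51.5 in Sm22mut untreated. WT libraries held 0 in all 3 treated replicates, against 183.4, 134.3 and 176.2 untreated, which is at least 56.8-fold lower against a floor of 3 reads per library. KRT12, the type I keratin of the cornea, also fell in both lines at low levels, with 0, 4.31 and 0 in Sm22mut with TGFβ, against 28.9, 51.5 and 40.9 untreated, and 4.40, 0 and 0 in WT with TGFβ, against 21.9, 21.4 and 21.5 untreated.

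KRT6A, a type II keratin of wounded epidermis, had 66.8, 104.4 and 93.3 normalized counts in Sm22mut with TGFβ, against 11.3, 10.7 and 13.1 untreated. WT held 52.8, 66.2 and 58.0 with TGFβ, against 1.99, 7.41 and 0 untreated. It rose by 2.79 ± 0.55 in Sm22mut and 4.35 ± 0.55 in WT, and it was higher in untreated Sm22mut than in untreated WT (2.11 ± 0.55, adjusted p = 0.00834), a call lost when only the compared groups were fitted (adjusted p = 0.0634). KRT71, a type II keratin of the hair follicle sheath, was at 0 in all 6 untreated libraries and at 34.5, 28.0 and 21.6 in Sm22mut and 30.8, 26.8 and 50.4 in WT with TGFβ, at least 9.59-fold higher in Sm22mut and at least 12.4-fold higher in WT against the floor of 3 reads per library. KRT6B and KRT79 rose in both lines, KRT16 and KRT5 were called higher in Sm22mut alone and KRT222 in WT alone, and none of these 3 had a called interaction. KRT85 was called lower in Sm22mut alone and KRT78 in neither line. The KRT222 call was lost with quantile normalization and without untreated WT replicate 2 (adjusted p = 0.0682), and that of KRT85 without the filter and without replicate 2 or 3 of untreated or treated Sm22mut (adjusted p up to 0.174).

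KRT83, a hair keratin, and KRT87P, a hair keratin pseudogene with a high count, followed KRT81, to which KRT83 is 93.4% identical in coding sequence. KRT83 had 158.7, 127.1 and 127.4 normalized counts in Sm22mut with TGFβ, against 642.7, 694.0 and 548.5 in Sm22mut untreated, and 181.4, 172.6 and 115.1 in WT with TGFβ, against 292.1, 274.4 and 271.8 in WT untreated. Both were higher in untreated Sm22mut than in untreated WT, by 1.16 ± 0.17 (adjusted p = 8.3e-05) for KRT83 and 0.44 ± 0.08 (adjusted p = 0.000887) for KRT87P. In all, 3 of the 14 were higher and 1 lower there (14.3% and 17.5% of all tested genes), 0 differed with TGFβ by limma (11.7% of all), and the interaction was called in 3 (16.6% of all), 1 higher (KRT20) and 2 lower (KRT83 and KRT87P).

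**Figure D4:**
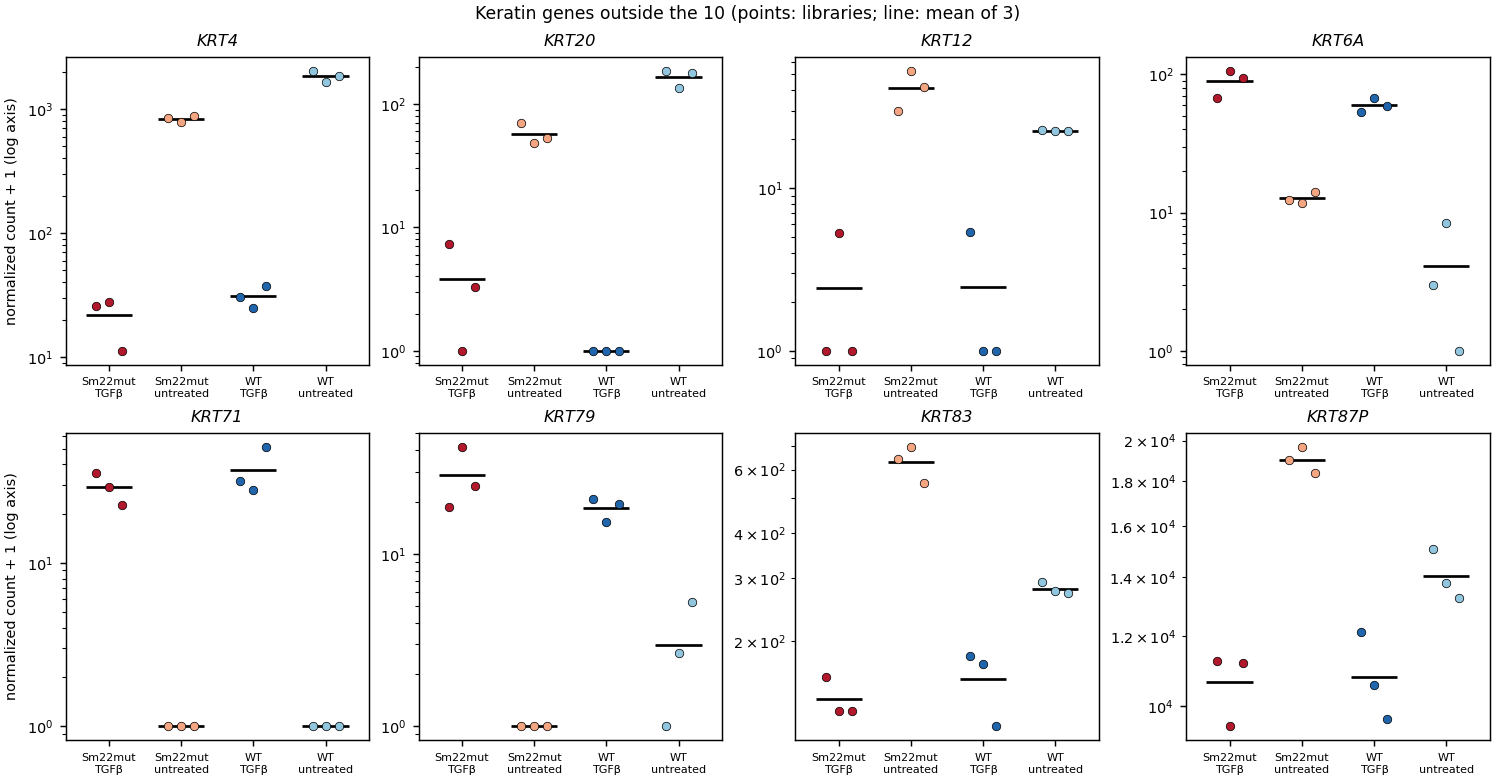
Normalized count plus 1 (y axis, log scale, different range in each panel) of 8 keratin genes outside the 10 in the 12 libraries; points are libraries and short lines the mean of 3. KRT4, KRT20 and KRT12 lie lower and KRT6A, KRT71 and KRT79 higher with TGFβ in both lines, while KRT83 and KRT87P peak in untreated Sm22mut.

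Of 25 tested genes that anchor or bind keratin filaments, 13 rose and 5 fell with TGFβ in Sm22mut (median 0.29), where 32.1% of all tested genes were higher and 30.7% lower. In WT 15 rose and 7 fell (median 0.56), where 30.8% of all were higher and 30.9% lower. HSPB1, a small heat shock protein that binds keratins, had 54580.5, 43130.3 and 49318 normalized counts in Sm22mut with TGFβ, against 4530.2, 4138 and 4175 untreated, a rise of 3.51 ± 0.11 (adjusted p = 7.67e-14). In WT it rose by 2.99 ± 0.11 (adjusted p = 6e-13). HSPA8, the constitutive heat shock chaperone, rose by 1.97 ± 0.08 in Sm22mut and 2.20 ± 0.08 in WT, and EPPK1 (epiplakin, which binds filament networks) by 2.81 ± 0.80 in Sm22mut and 2.25 ± 0.80 in WT over untreated counts of 4.94 or less. The EPPK1 call in WT was lost with quantile normalization and without untreated replicate 1, treated replicate 3 or replicate 1 of both treated groups (adjusted p up to 0.117). PKP1, a desmosomal plakophilin, rose in WT (3.31 ± 0.96) at counts of 14.3 to 24.9. PPP1R13L rose by 1.59 ± 0.07 in Sm22mut, and also rose in WT, from a mean of 1256 normalized counts untreated to 2972 with TGFβ. Between untreated Sm22mut and WT, 7 were higher and 7 lower (14.3% and 17.5% of all tested genes), led by PKP1 (2.85 ± 0.96), the hemidesmosomal collagen COL17A1 (0.95 ± 0.30), TRIM29 (0.84 ± 0.17) and PLEC (plectin, 0.66 ± 0.15). The PKP1 call was lost without the filter, with quantile normalization, and without any 1 untreated library but WT replicate 3 (adjusted p up to 0.118). That of COL17A1 was lost with the compared groups alone and without untreated Sm22mut replicate 1 or 2 or untreated WT replicate 1 (adjusted p up to 0.106). With TGFβ 4 were higher and 2 lower (7.38% and 4.32% of all), led by ITGB4, the hemidesmosomal integrin (0.78 ± 0.08, adjusted p = 1.36e-05). The interaction was called in 4 of 25, all higher (10.6% of all): JUP (plakoglobin, 0.61 ± 0.10), PKP2 (0.47 ± 0.10), and HSPB1 and PPP1R13L, whose calls were lost in 7 and 4 fits without 1 library (adjusted p up to 0.0749 and 0.0692), that of PPP1R13L also with equal totals (0.0514).

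Of 21 tested transcription factors known to act on keratin genes in epithelia, 10 fell and 6 rose with TGFβ in Sm22mut, and 13 fell and 4 rose in WT. Over all tested genes 30.7% were lower and 32.1% higher in Sm22mut, and 30.9% lower and 30.8% higher in WT. EHF, an epithelial ETS factor, changed by -3.27 in Sm22mut and -4.23 in WT on the log2 scale (SE 0.12 each), and TFAP2C, an AP-2 factor, by -2.72 in Sm22mut and -2.83 in WT (SE 0.06 each). TP63, the master factor of stratified epithelia, rose in both lines. It had 9135, 9838.5 and 9655 normalized counts in Sm22mut with TGFβ, against 429.2, 464.4 and 569.7 untreated, and 6408, 6981 and 7902 in WT with TGFβ, against 1098, 976.3 and 1048 untreated. Between untreated Sm22mut and WT, 13 of the 21 were lower and 2 higher, where 17.5% of all tested genes were lower and 14.3% higher. Among the lower were TP63 (-1.10 ± 0.10), TFAP2A (-0.98 ± 0.06) and TFAP2C (-0.71 ± 0.06). The interaction was called in 12, with 11 higher and 1 lower (10.6% and 6.02% of all tested genes), among the higher TP63 (1.53 ± 0.14, adjusted p = 5.59e-06), TFAP2A (1.11 ± 0.09) and EHF (0.96 ± 0.17). With TGFβ 3 were higher, EHF the most (1.05 ± 0.12), and 3 lower (7.38% and 4.32% of all).

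Of 15 other intermediate filament genes tested, 8 rose and 4 fell with TGFβ in Sm22mut, and 9 rose and 2 fell in WT. Over all tested genes 32.1% were higher and 30.7% lower in Sm22mut, and 30.8% higher and 30.9% lower in WT. NES (nestin, a filament protein of progenitor cells) rose by 2.63 ± 0.17 in Sm22mut and 2.06 ± 0.17 in WT, and the neurofilament NEFL by 1.47 ± 0.08 in Sm22mut and 1.73 ± 0.08 in WT. NEFM rose in WT by 1.74 ± 0.25, and its Sm22mut means were 70.7 with TGFβ and 47.7 untreated. DES (desmin, the muscle filament protein) was called lower in both lines, with -0.90 in Sm22mut and -2.43 ± 0.37 in WT. The Sm22mut call of DES was lost without the filter (adjusted p = 0.0955). It was also lost without any 1 Sm22mut library (adjusted p up to 0.166) and without replicate 1 or 2 of untreated WT. In untreated cells 4 were higher and 6 lower in Sm22mut than in WT (14.3% and 17.5% of all), with NEFM (1.92 ± 0.25) and NEFL (0.88 ± 0.08) above WT and DES (-1.10 ± 0.37) and NES (-0.93 ± 0.17) below. The untreated call of DES was lost without the filter and without replicate 1 or 3 of untreated Sm22mut or of untreated WT (-0.90 and adjusted p = 0.139 without WT replicate 3). With TGFβ 1 was higher (NEFL, 0.62 ± 0.08) and 4 lower (7.38% and 4.32% of all), and the interaction was called in 4, with 1 higher and 3 lower (10.6% and 6.02% of all).

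The genes whose pattern over the 12 libraries was most like that of each keratin were found by Pearson's r of log2(normalized count + 1), among tested genes other than keratins with a mean of at least 100. The closest were CSRP1 for KRT7 (r = 0.993), MDH2 for KRT8 (0.991), UBE2M for KRT10 (0.995), TXLNA for KRT15 (0.978), SYT12 for KRT17 (0.994), ATP5F1 for KRT18 (0.987), CH507-9B2.3 for KRT19 (0.935), FAM167A, CDKN1A and CCND1 for KRT80 (0.981, 0.979 and 0.978), PSMF1 for KRT81 (0.993) and MRPL41 for KRT86 (0.965). All points share the contrast between treated and untreated libraries, and the values describe likeness alone. Among the keratins, r was highest for KRT10 with KRT81 (0.978), followed by KRT15 with KRT81 (0.959), KRT81 with KRT86 (0.958) and KRT8 with KRT18 (0.952). KRT80 was most like KRT7 (0.871), and KRT7 most like KRT17 (0.885).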

How the data were processed

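Total RNA of the 12 libraries was sequenced by a service provider. The authors deposited 1 table of normalized counts per gene, a signal scaled by library. The submitters' processing notes name HISAT2, StringTie, featureCounts and DESeq2 and the build GRCh38.p14; the sources used here do not state versions, order, annotation release, strand setting or the handling of reads with several matches. In every library 100% of the deposited values were whole multiples of 1 step (tolerance 0.01 reads), so whole reads were recovered, 84210775 to 111141708 per library. Depth limits only the members with low counts, such as KRT15, KRT17 and KRT19. Of the entries, 28 have dates for names and were kept in the totals.

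Main results are from limma 3.58.1 (R 4.3.3, trend) on log2(normalized count + 1), with 4 group means, two-sided, over 20456 entries with at least 10 in at least 3 libraries; p-values are Benjamini-Hochberg adjusted over all of these, with a threshold of 0.05. Log2 fold changes on this scale understate changes of low genes. On the recovered reads, edgeR 4.0.16 called 6280 higher and 6523 lower with TGFβ in Sm22mut, 6281 and 6388 in WT, 3193 and 3336 between untreated Sm22mut and WT, 1513 and 1051 between the treated lines, and 1956 and 1448 in the interaction. DESeq2 1.42.0 was another alternative. Other alternatives were pseudocounts, filters, scalings, robust variance, leaving out each library, fitting only the groups being compared, a replicate block and, chosen after seeing the data, leaving out replicate 1 of both treated groups and summing near-identical entries. The fit was tested on simulated data.

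All 10 keratins and every other tested keratin are named. Of each partner list up to 4 called genes are named by absolute log2 fold change in the comparison described (1 such gene is not reported here), and the nearest gene in pattern for each member, with the next ones for KRT80. The members and lists were chosen with earlier results of these data known. Shared sequence was counted in 50-base windows of GENCODE 29 transcripts.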

Additional observations from a re-analysis of the deposited data

Results flagged for a closer look

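The response to TGFβ differed between Sm22mut and WT, by the interaction term in limma, for 5 of the 10 keratins and 3 further ones. The response of Sm22mut minus that of WT was -1.06 ± 0.16 (log2, SE) for KRT80 (adjusted p = 0.000424), -0.54 ± 0.11 for KRT7 (0.00245), -0.69 ± 0.13 for KRT10 (0.00234), -0.82 ± 0.25 for KRT15 (0.0331) and -0.45 ± 0.13 for KRT81 (0.0279). For KRT7 and KRT80 this is a smaller rise in Sm22mut, and for KRT10, KRT15 and KRT81 a deeper fall. In all 5 the untreated Sm22mut libraries lay above the untreated WT libraries and the treated lines were not called different.

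The hair keratin KRT83 (-1.32 ± 0.24, adjusted p = 0.00141) and the pseudogene KRT87P (-0.46 ± 0.12, adjusted p = 0.0154) had the same pattern as KRT81. KRT20 had the only positive value, 3.07 ± 0.81 (adjusted p = 0.0164), which depends on the pseudocount because KRT20 was at 0 in all 3 WT libraries with TGFβ.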

How the results depend on the processing

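Of the values of the 10 keratins under all alternatives, 1175 kept their direction and side of the threshold, 48 lost a call, 7 gained one and 25 changed sign, none of the last a called value. In the count of all genes lower in Sm22mut than in WT with TGFβ, 884 became 1355 with equal totals, 1345 with quantile normalization, 324 with the compared groups alone (859 higher, against 1510) and 540 without replicate 1 of both treated groups; leaving out 1 library gave 426 to 1590 lower and 895 to 2251 higher. The keratins called there numbered 1 higher (KRT80) with the compared groups alone and with DESeq2, and 0 to 1 higher and 0 to 1 lower without 1 library. Without 1 library, keratins lower with TGFβ in WT numbered 4 to 7 (4 without untreated replicate 1, which lost KRT8, KRT18 and KRT19), and those with a called interaction 3 to 5, losing KRT15 and KRT81. The cause was not tested. Over all tested genes, deviations from the group means correlated by -0.031 to 0.129 for same-numbered libraries and by -0.147 to 0.152 for other pairs. These values do not settle whether same-numbered libraries were paired, and the main fit did not take the replicate numbers as pairs. The value of 0.129 belongs to the treated replicates 1, which had the highest value of their group for 10 of 10 keratins in Sm22mut and 9 of 10 in WT (share over all tested genes not given). With the replicate block, 1 keratin call was added (KRT80 with TGFβ, adjusted p = 0.0327) and the counts higher and lower were 6667 and 6429 with TGFβ in Sm22mut, 6442 and 6478 in WT, 3229 and 3839 untreated, 1863 and 1124 between treated lines, and 2527 and 1460 for the interaction. Each of these counts was above that of the main fit.

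Signs changed near 0, in values that were not called. Between the treated lines KRT81 was -0.014 with equal totals and -0.0054 with TMM factors, KRT8 0.081 and KRT18 0.00085 with quantile normalization, and without replicate 1 of both treated groups KRT8 was 0.024, KRT18 0.074 and KRT15 -0.0049. The interaction of KRT18 was -0.023 with equal totals and -0.0049 with edgeR, and that of KRT19 0.16 with edgeR and 0.17 with DESeq2. Leaving out 1 library gave, between the treated lines, -0.113 to 0.0295 for KRT7, -0.101 to 0.0716 for KRT8, -0.116 to 0.116 for KRT18 and -0.0701 to 0.126 for KRT81. It gave -0.219 to 0.153 for KRT17 between the untreated lines, and interactions of -0.0836 to 0.149 for KRT18 and -0.822 to 0.308 for KRT19.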
